A study of Mus musculus with 9 samples.

Results

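This account covers 10 of the 24346 mouse genes in the RNA-seq tables: the cysteine cathepsins Ctsb, Ctsc, Ctsh, Ctsl, Ctss and Ctsz, the aspartic protease Ctsd, the serine carboxypeptidase Ctsa, the asparaginyl endopeptidase Lgmn and the thiol reductase Ifi30. They were chosen from their measured levels in these same libraries, so their differences between ABCs and FO B cells are given as a description, with no test. Splenic B cells were sorted from C57BL/6 wild-type mice into 3 groups of 3 libraries: FO B (Young), follicular B cells of mice 8 weeks old, FO B (Aged), follicular B cells of mice 50 weeks old, and ABCs (Aged), age-associated B cells of mice 50 weeks old. No group carried a transgene or received a treatment. By the sort described in the methods, FO B cells were B220hi CD43- CD23+ CD21lo and ABCs were B220hi CD43- CD23- CD21lo CD11b+ CD11c+, from 3 mice each. Levels were in FPKM, read fragments scaled to transcript length and to the number of mapped reads.

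Lysosomal proteases break down the proteins that a cell takes up or turns over, and in B cells they also make the peptides that MHC class II molecules present to CD4 T cells. They act stepwise on the invariant chain, which fills the class II groove until the last fragment is exchanged for a peptide. Cathepsin S (Ctss) does the late cut of the invariant chain in B cells and dendritic cells, whereas cathepsin L (Ctsl) does it in thymic epithelium. Legumain (Lgmn) cuts after asparagine, and GILT (Ifi30) reduces the disulfide bonds of antigens before proteases can act on them.

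The labels were compared with the genes behind the sort. Of 8 B lineage genes compared between ABCs and FO B (Aged) with limma, Cd22 (423 and 885 FPKM in FO B (Aged) and ABCs, adjusted p = 6.33e-05) and Blk (162 and 229 FPKM, adjusted p = 0.00168) rose, Pax5 (29.6 and 20.3 FPKM, adjusted p = 0.00625) and Ebf1 (69.2 and 41.7 FPKM, adjusted p = 0.0123) fell, and the other 4 did not pass the test. Cd79a, a chain of the B cell receptor complex and one of these 4, lay between 2462 and 3562 FPKM in ABCs, between 2991 and 3317 FPKM in FO B (Aged) and between 3339 and 3390 FPKM in FO B (Young). Fcer2a (CD23) averaged 714 FPKM in FO B (Aged) and 3.86 FPKM in ABCs, Itgax (CD11c) 0.115 and 50.7 FPKM, Itgam (CD11b) 0.665 and 55.1 FPKM, and Ptprc, which encodes B220 among other forms of CD45, 293 and 318 FPKM. Cr2 (CD21) averaged 151 FPKM in FO B (Aged) and 4.69 FPKM in ABCs although both were sorted as CD21lo. Spn, which encodes CD43, averaged 3.05 FPKM in FO B (Aged) and 67.8 FPKM in ABCs although both were sorted as CD43-. Depth, approximated from the size that 1 read has in low FPKM values, was 7400000 to 9130000 mapped reads per library.

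The 10 genes lie on 8 chromosomes in the GENCODE M21 annotation of GRCm38, the same assembly as mm10. On chromosome 2 are Ctsa (chr2:164832873-164841032, plus strand) and Ctsz (chr2:174427493-174439039, minus strand). On chromosome 7 are Ctsc (chr7:88278085-88310888, plus strand) and Ctsd (chr7:142375911-142388038, minus strand). The others are Ctss (chr3:95526786-95556403, plus strand), Ifi30 (chr8:70762774-70766663, minus strand), Ctsh (chr9:90054152-90076089, plus strand), Lgmn (chr12:102394084-102439813, minus strand), Ctsl (chr13:64359337-64370890, minus strand) and Ctsb (chr14:63122462-63145923, plus strand). All but Ifi30 carry the type protein coding in this annotation, where Ifi30 is listed as a processed transcript. The span of another annotated gene overlaps that of 8 of the 10, all except Ctsh and Lgmn. Where exons of genes on opposite strands overlap, their reads cannot be told apart without strand. For Ctsd, Ctsl and Ctss an overlapping gene lies on the same strand. Overlap of exons was not examined. Ctsa overlaps Neurl2 and Pltp, and Pltp averaged 22.9 FPKM in FO B (Young), 46.5 FPKM in FO B (Aged) and 71.5 FPKM in ABCs.

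Since most of the 10 genes had their highest mean in ABCs, the bases before their starts were read for sequence motifs on both strands. The RefSeq table (GRCm38.p6) gave windows of 300 bases, 250 before and 50 after the start, for 8 of the 10 genes, all but Ctsb and Ctsh. CACGTG, the core of the CLEAR element that the lysosomal regulator TFEB binds, was present for 5 of these 8, Ctsa, Ctsd, Ctsl, Ifi30 and Lgmn. It was in 7.15% of all 32851 windows, and 12.6% of the 7945 genes in the table with a mean of at least 1 FPKM had it. The matches before the start are shown within 30 bases each, 5′ to 3′ on the strand of the gene, with CACGTG in capitals.
Ctsa, chr2:164833743-164833772, plus strand: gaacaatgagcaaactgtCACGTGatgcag
Ctsd, chr7:142388048-142388077, minus strand: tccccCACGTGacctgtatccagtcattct
Ctsd, chr7:142387908-142387937, minus strand: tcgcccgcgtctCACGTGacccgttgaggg
Ifi30, chr8:70766842-70766871, minus strand: atccaaaaacttCACGTGaccagacatgct
Lgmn, chr12:102439124-102439153, minus strand: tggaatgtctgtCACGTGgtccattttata
Ctsl, chr13:64370739-64370768, minus strand: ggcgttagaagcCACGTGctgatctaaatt

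In Ctsd the match nearest the start lies 98 bases before it, in Ifi30 it lies 196 bases before the start and in Ctsl 236 bases. Those of Ctsa and Lgmn lie 12 and 49 bases before a second listed start, not the first. These starts are those of the RefSeq table. By the GENCODE spans given above, the matches shown for Ctsa, Lgmn and Ctsl and the nearer match of Ctsd lie inside the gene. The longer CLEAR palindrome, which contains CACGTG, was in none of the 8 genes and in 0.326% of all windows, which says only that these letters are not there.

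Ctss, the gene whose level differed least between groups, is shown beside Ifi30, the gene that differed with age among FO B cells, each with the 250 bases before its start. Capitals mark CACGTG in Ifi30 and a match to the interferon-stimulated response element in Ctss.
Ctss, chr3:95526536-95526785, plus strand: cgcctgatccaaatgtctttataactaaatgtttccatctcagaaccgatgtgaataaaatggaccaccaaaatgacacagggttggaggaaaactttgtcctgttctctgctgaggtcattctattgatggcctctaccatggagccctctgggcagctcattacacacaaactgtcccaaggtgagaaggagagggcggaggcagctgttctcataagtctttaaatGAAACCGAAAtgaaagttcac
Ifi30, chr8:70766664-70766913, minus strand: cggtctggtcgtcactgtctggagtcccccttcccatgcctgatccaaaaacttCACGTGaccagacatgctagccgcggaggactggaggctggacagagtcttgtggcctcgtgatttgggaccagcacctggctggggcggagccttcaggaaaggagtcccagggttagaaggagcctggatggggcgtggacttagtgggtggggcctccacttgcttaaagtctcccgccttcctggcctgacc

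The window of Ctss held no CACGTG. Its interferon-type match lies 21 bases before the start and is a motif found in 3.44% of all windows, and a PU.1-type motif (GAGGAAGT, in 3.20% of windows) spans the start itself. The same PU.1-type motif was in the window of Ctsc, as was a STAT-type motif (TTCNNNGAA, in 8.30% of windows). A T-box motif (AGGTGTGA, in 1.28% of windows) and a PU.1 and IRF composite (in 2.72% of windows, with letters shared with the interferon-type motif) were in none of the 8 genes. The matches are letters in a window, and binding was not measured.

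The 10 transcripts had their highest summed level in ABCs. The sum averaged 2462 ± 58.5 FPKM (SD, n = 3) in FO B (Young), 2791 ± 36.8 FPKM in FO B (Aged) and 4301 ± 129 FPKM in ABCs. As a share of all FPKM of a library this was 0.358%, 0.403% and 0.605%. In bulk libraries, fewer cells of a type and less RNA per cell cannot be told apart. In ABCs 8 of the 10 genes lay above every FO B (Aged) library, which 26.3% of all 10412 genes tested also did in that direction, and 9 of 10 lay above every FO B (Young) library, as did 27.7% of the 10438 genes tested there. Their median log2 fold change of FPKM + 1 between ABCs and FO B (Aged) was 0.77, beside -0.01 over all genes tested. Because the genes were chosen on these values, nothing is read from these counts.

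**Figure D1:**
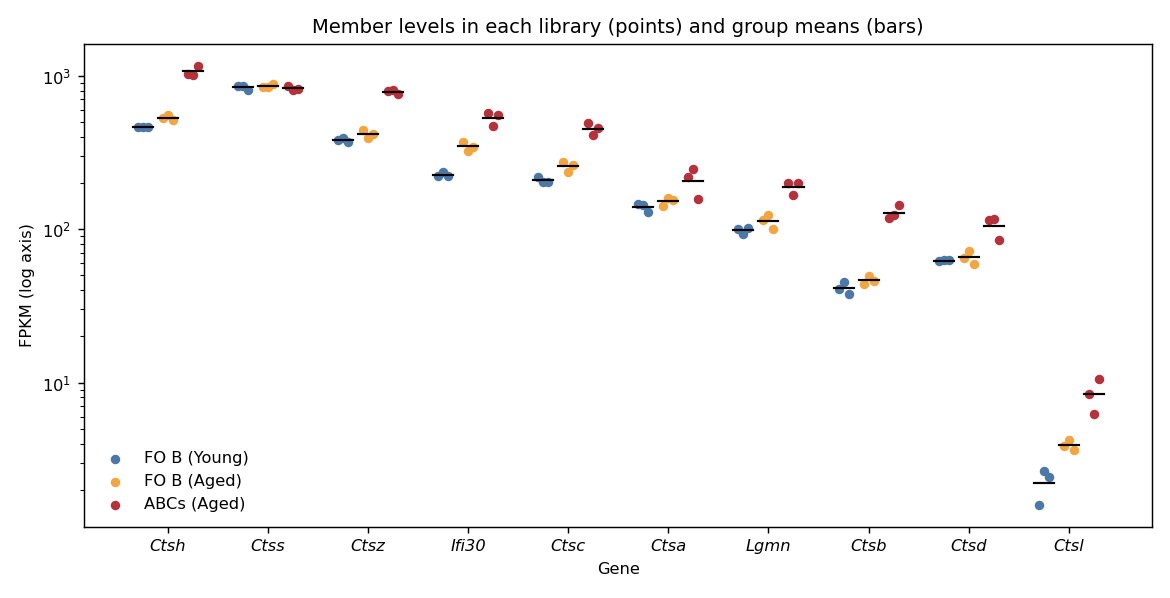
FPKM on a log axis for each of the 10 genes, ordered by the mean in ABCs, with 1 point per library and a bar at the mean of each group of 3. The Ctss points of all groups lie between 805 and 877 FPKM, and Ctsb shows the widest step, from at most 49.3 FPKM in FO B (Aged) to at least 118 FPKM in ABCs.

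Ctss was the most abundant of the 10 in every FO B library and had nearly the same level in all groups. It was 856, 853 and 805 FPKM in FO B (Young), 844, 842 and 877 FPKM in FO B (Aged), and 852, 806 and 824 FPKM in ABCs. The 3 groups overlapped. The log2 difference between ABCs and FO B (Aged) was -0.05 (95% interval -0.19 to 0.10), and 0.14 when libraries were scaled to the upper quartile of values above 0.

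Ctsh, an aminopeptidase with some endopeptidase activity, took the first place in all 3 ABC libraries. It was 466, 460 and 463 FPKM in FO B (Young), 530, 552 and 517 FPKM in FO B (Aged), and 1031, 1011 and 1157 FPKM in ABCs. All groups were apart from each other, and ABCs exceeded FO B (Aged) by 0.998 on the log2 scale, with a standard error of 0.08. The ratio of Ctsh to Ctss within a library, on FPKM, averaged 0.553 ± 0.0191 in FO B (Young), 0.624 ± 0.0336 in FO B (Aged) and 1.29 ± 0.102 in ABCs (SD, n = 3 each).

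Ctsb, an abundant endopeptidase that also trims dipeptides from the end of proteins, had the largest fold of the 10 between ABCs and FO B (Aged). It was 40.6, 45.3 and 37.7 FPKM in FO B (Young), 44.1, 49.3 and 46.1 FPKM in FO B (Aged), and 118, 123 and 144 FPKM in ABCs. Every ABC library was above all 6 FO B libraries, which overlapped among themselves by age. The mean was 2.76 times that of FO B (Aged), a log2 difference of 1.44 with a standard error of 0.09, and Ctsb passed Ctsd in the order of levels in all ABC libraries while it lay below it in all FO B libraries.

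Ctsz, a carboxypeptidase, was the third gene by level in every library. It was 383, 395 and 367 FPKM in FO B (Young), 443, 392 and 419 FPKM in FO B (Aged), and 796, 801 and 762 FPKM in ABCs. The ABC libraries stood above the rest and close together, with a coefficient of variation of 2.68%, and the mean was 1.88 times that of FO B (Aged) (log2 difference 0.91, standard error 0.07).

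Ctsc, the dipeptidyl peptidase that activates granule serine proteases, was 219, 203 and 204 FPKM in FO B (Young), 274, 237 and 261 FPKM in FO B (Aged), and 492, 408 and 453 FPKM in ABCs. None of the groups overlapped, in the order young, aged, ABC. The mean in ABCs was 1.75 times that of FO B (Aged), a log2 difference of 0.81 with a standard error of 0.09.

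Ctsl had by far the lowest level and, by coefficient of variation, the widest spread in FO B (Young) and ABCs, though not in FO B (Aged). It was 1.60, 2.65 and 2.44 FPKM in FO B (Young), 3.84, 4.25 and 3.64 FPKM in FO B (Aged), and 8.38, 6.27 and 10.6 FPKM in ABCs. The groups did not overlap, but the values rest on about 26 to 42 reads per library in FO B (Young) and about 100 to 160 in ABCs. The mean in ABCs was 2.15 times that of FO B (Aged) (log2 difference 0.91, standard error 0.18), and Ctsl amounted to 0.267% of Ctss in FO B (Young), 0.458% in FO B (Aged) and 1.01% in ABCs.

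Ctsd, the main aspartic protease of lysosomes, was 61.7, 62.9 and 62.5 FPKM in FO B (Young), 65.3, 72.3 and 59.3 FPKM in FO B (Aged), and 114, 116 and 84.6 FPKM in ABCs. The ABC libraries were above all others, the third one nearest to them, and the log2 difference from FO B (Aged) was 0.66 with a standard error of 0.14.

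Ctsa, which also protects beta-galactosidase and neuraminidase in the lysosome, was 147, 144 and 130 FPKM in FO B (Young), 141, 159 and 156 FPKM in FO B (Aged), and 217, 247 and 156 FPKM in ABCs. The third ABC library lay within the range of FO B (Aged), so these groups overlapped, and the log2 difference was 0.42 with a standard error of 0.16. Without that library it was 0.61. The same library was the lowest of the ABCs for Ctsd and Ctsz and the highest for Ctsb, Ctsh, Ctsl and Lgmn.

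Lgmn was 100, 93.6 and 102 FPKM in FO B (Young), 114, 125 and 99.7 FPKM in FO B (Aged), and 199, 166 and 201 FPKM in ABCs. The FO B groups overlapped and the ABC libraries were above them, at 1.67 times the mean of FO B (Aged) and a log2 difference of 0.74 with a standard error of 0.11. Ifi30 was 221, 236 and 221 FPKM in FO B (Young), 372, 325 and 344 FPKM in FO B (Aged), and 573, 469 and 555 FPKM in ABCs. Its 3 groups formed separate steps, and the mean in ABCs was 1.53 times that of FO B (Aged), a log2 difference of 0.61 with a standard error of 0.10.

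**Figure D2:**
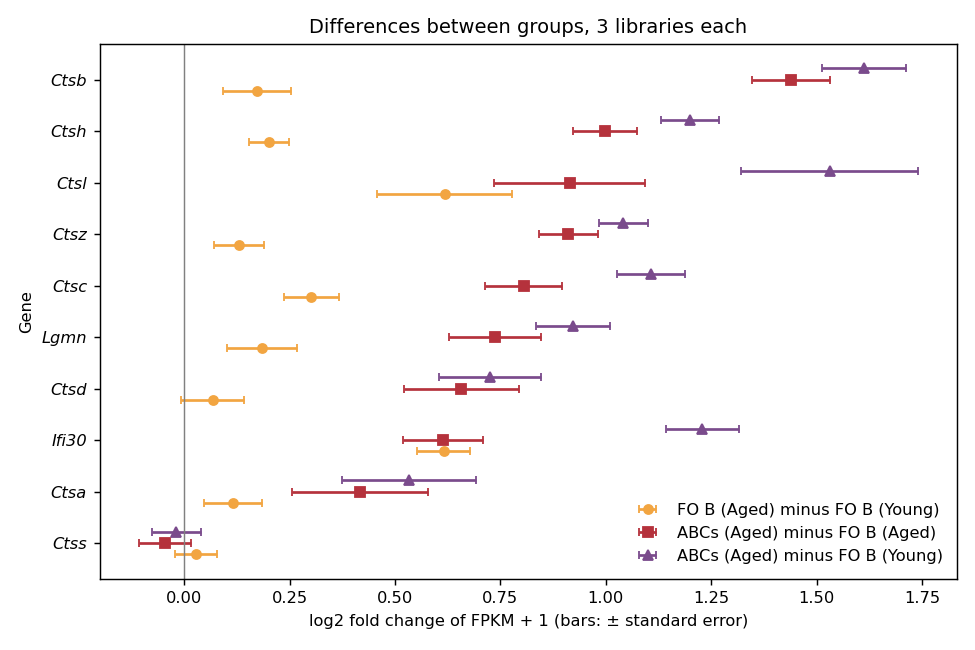
Log2 fold change of FPKM + 1 for each of the 10 genes between the groups, 3 libraries each, with bars of ± 1 standard error from limma. Ifi30 has the same size of difference with age in FO B cells (0.62) as between ABCs and FO B (Aged) (0.61), while Ctsb differs by 0.17 with age and by 1.44 in ABCs, and comparisons that share FO B (Aged) are not independent.

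The make-up of the 10 transcripts differed between the groups. Ctss was 34.0% ± 0.362 of their summed FPKM in FO B (Young), 30.6% ± 0.860 in FO B (Aged) and 19.2% ± 0.249 in ABCs (SD, n = 3 each). Ctsh was 18.8%, 19.1% and 24.8% in the same order, and Ctsz was 15.5%, 15.0% and 18.3%. Ifi30 was 9.17% in FO B (Young), 12.4% in FO B (Aged) and 12.4% in ABCs, so the aged groups had nearly the same share. Ctsd kept a share of 2.35% to 2.54% in all groups. Without Ctss the other 9 genes summed to 1624, 1936 and 3473 FPKM.

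**Figure D3:**
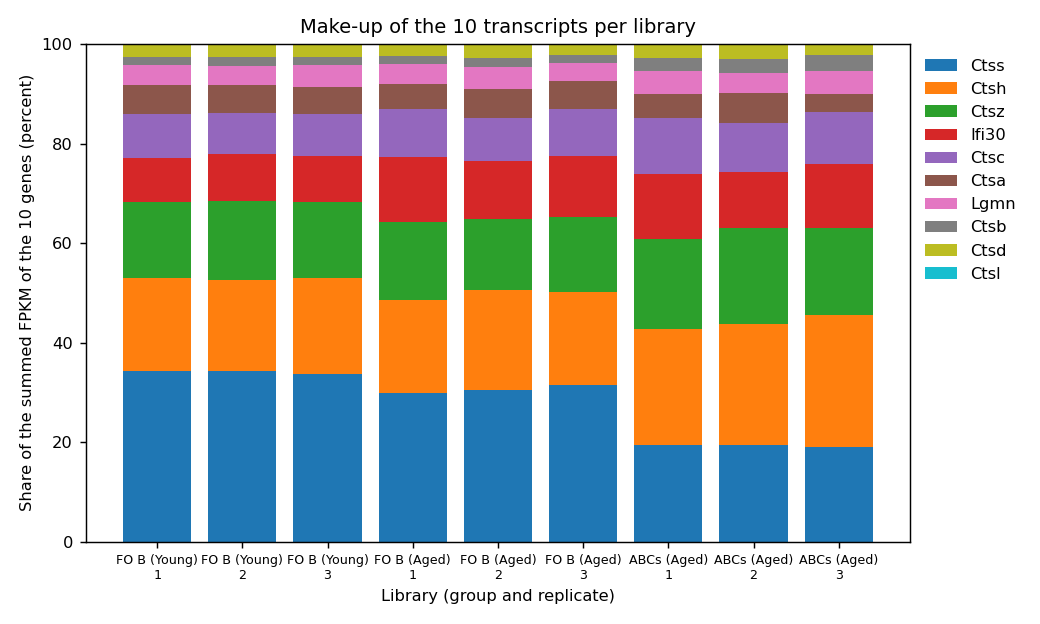
Stacked bars of the share of each gene in the summed FPKM of the 10 genes, in percent, 1 bar per library. Ctss takes 33.6% to 34.3% in FO B (Young) and 19.0% to 19.4% in ABCs, and Ctsh passes it in each ABC library.

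The genes whose log2(FPKM + 1) followed each of the 10 most closely over the 9 libraries were listed among 10375 genes, as a description. The libraries fall into ABCs and FO B cells, so a coefficient mostly reflects that step for the genes that have it. Ctss had nearly the same level in all groups, so its coefficient does not reflect that step. Tmem131 was closest to Ctsh (Pearson r = 0.999), Fam46c to Ctsb (0.997), D8Ertd82e to Ctsz (0.995), Psmb8 to Ifi30 (0.995), Gbp6 to Ctsc (0.993), Srgap3 to Ctsd (0.989), Tpi1 to Lgmn (0.987), Tank to Ctsl (0.979), 4933421O10Rik to Ctsa (0.970) and Ppp1r9b to Ctss (0.954). Within the 10, Ctsb and Ctsh were the closest pair (0.993), and Ctss was below 0 with all others.

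The comparison of aged with young FO B cells asked whether age alone, within the follicular gate, differed in these genes, and it was tested with limma over 10122 genes. The 10 genes were chosen with the levels in these libraries known, both FO B groups included. The p-values do not allow for that choice. Ifi30 was the only one of the 10 called at an FDR under 0.05, with a log2 difference of 0.62 (95% interval 0.47 to 0.76) and an adjusted p of 0.00608. The lowest FO B (Aged) library was 325 FPKM and the highest FO B (Young) library was 236 FPKM, so it was higher in 3 of 3. Of all genes tested, 0.346% were called higher and 0.119% lower, and Ifi30 ranked 12 by p. It was called under every alternative run, with an adjusted p between 0.00525 and 0.0474.

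All 10 genes had a higher mean in FO B (Aged) than in FO B (Young), and 4 of them, Ctsc, Ctsh, Ctsl and Ifi30, did not overlap between the groups, beside 9.64% of all genes tested in that direction. The same 4 had an unadjusted p under 0.05, as had 12.8% of all genes. Ctsc differed by 0.30 on the log2 scale (adjusted p = 0.118), Ctsh by 0.20 (adjusted p = 0.134) and Ctsl by 0.62 (adjusted p = 0.168), none past the threshold. For the other 6 the log2 difference ran from 0.03 (Ctss) to 0.18 (Lgmn), with adjusted p from 0.406 to 0.868. Their 95% intervals held 0, with the highest upper bound, 0.38, for Lgmn. The 10 genes had a median of 0.18, beside 0.00 over all genes tested. The share of all genes with a higher mean in FO B (Aged) was not counted. Since the 10 were chosen with these levels known, nothing is read from these counts or medians. The sign turned for Ctsa, Ctsd and Ctss when libraries were scaled to the upper quartile of values above 0, which moved the median of all genes by -0.12 and the share of higher calls from 74.5% to 47.1%.

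The other genes of the pathway were compared between ABCs and FO B (Aged) in 8 lists of 118 genes, none of which holds any of the 10. The lists were chosen with earlier results of these data known, so their counts of calls are not independent of the data. Of the 99 whose mean reached 1 FPKM in both groups, 63 rose in ABCs, 3 fell and 33 did not pass an FDR of 0.05, with a median log2 difference of 0.47. Of all 10412 genes tested, 19.4% were called higher and 16.5% lower. Higher calls were 54.0% of all calls, and 80.2% when libraries were scaled to the upper quartile of values above 0. This scaling moved the median of all genes by 0.15 and gave 68 pathway genes higher, counted with Cpq and Cst7, and 2 lower. Cpq and Cst7 entered the fit only through their level in ABCs, the group where they were higher. With them the count of higher genes was 65, and it was 54 to 66 when 1 library was left out.

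Of the other lysosomal proteases, 7 reached a mean of 1 FPKM in both groups, and all 7 rose. Among them were Ctse, an aspartic protease of endosomes (7.12 FPKM in FO B (Aged) and 29.7 FPKM in ABCs, log2 difference 1.85, adjusted p = 0.00239) and Scpep1, a serine carboxypeptidase (84.9 and 168 FPKM, 0.98, adjusted p = 0.000149). Cpq, a dipeptidase, averaged 0.308 ± 0.296 FPKM in FO B (Aged) and 4.62 ± 2.76 FPKM in ABCs (SD, n = 3 each). Of the inhibitors, 2 of 3 with that mean in both groups rose, and Cst7, cystatin F, averaged 0.0485 FPKM in FO B (Aged) and 2.89 FPKM in ABCs. Cstb, a cytosolic inhibitor of cysteine cathepsins, averaged 121 and 188 FPKM (0.63, adjusted p = 0.00398). Cst3, the secreted cystatin C, averaged 357 and 571 FPKM (0.64, adjusted p = 0.0367), a call lost when any 1 FO B (Aged) library was left out and under 3 other alternatives.

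Genes that tag and sort lysosomal enzymes moved in both directions, 5 higher and 2 lower of 10. Gnptab, the enzyme that makes the mannose 6-phosphate tag, rose by 0.74 on the log2 scale (adjusted p = 0.000832), Nagpa, which uncovers the tag, by 0.59 (adjusted p = 0.00414), and Igf2r, a receptor for it, by 0.66 (adjusted p = 0.0172, lost without FO B (Aged) replicate 2 or ABC replicate 1 and under quantile normalization). Gga2, an adaptor for these receptors at the Golgi, was 112, 104 and 110 FPKM in FO B (Aged) and 40.4, 33.7 and 20.7 FPKM in ABCs (-1.80, adjusted p = 0.000965). Sorl1, another sorting receptor, fell from 63.5 to 28.4 FPKM (-1.16, adjusted p = 0.00276).

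Among lysosomal membrane proteins 12 of 15 rose and the other 3 did not pass the test. Laptm4b averaged 3.57 FPKM in FO B (Aged) and 27.1 FPKM in ABCs (2.74, adjusted p = 0.00087), Cd63, a tetraspanin of late endosomes, 1.43 and 6.02 FPKM (1.55, adjusted p = 0.0031) and Cd68 4.17 and 10.7 FPKM (1.13, adjusted p = 0.0155). The call of Cd68 was lost without FO B (Aged) replicate 1 or ABC replicate 1. Of 18 subunits and partners of the V-ATPase, the pump that acidifies lysosomes, 9 rose and 1 fell. Atp6v0a2 rose by 1.04 (adjusted p = 0.00373), Atp6v0e by 0.74 (adjusted p = 0.000296) and Atp6v1d by 0.54 (adjusted p = 0.00419), while Atp6ap1 fell by 0.32 (adjusted p = 0.0052), a call not kept under the scaling to the upper quartile of values above 0 (adjusted p = 0.46).

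Sugar and lipid hydrolases were the largest list, with 22 of 31 higher and the other 9 not past the test. Grn, the lysosomal granulin precursor, was 27.5, 36.2 and 32.3 FPKM in FO B (Aged) and 179, 159 and 257 FPKM in ABCs (2.57, adjusted p = 0.000119). Galns, a sulfatase for galactose 6-sulfate, averaged 11.3 and 37.7 FPKM (1.65, adjusted p = 6.14e-05). Of 5 regulators of lysosome biogenesis 2 rose, the transcription factor Tfeb from 48.9 to 68.5 FPKM (0.48, adjusted p = 0.00166) and Rragc, a GTPase that senses nutrients at the lysosome, by 0.34 (adjusted p = 0.0128, and 0.052 without FO B (Aged) replicate 3).

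**Figure D4:**
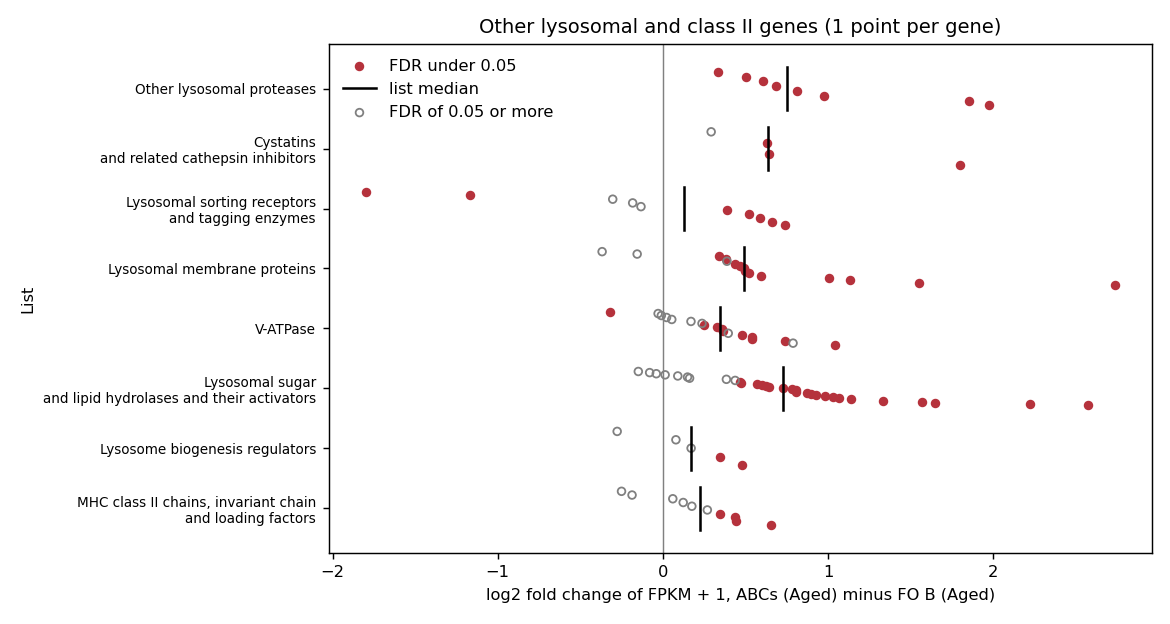
Log2 fold change of FPKM + 1 between ABCs (Aged) and FO B (Aged) for the tested genes of 8 lists, 1 point per gene, filled where the limma FDR was under 0.05, with a line at each list's median. The drawn medians run from 0.13 for the sorting receptors to 0.75 for the other proteases, and 3 filled points lie below 0. Cpq and Cst7, which entered the fit only through their level in ABCs, are among the filled points and count in these medians. Without Cpq the median of the other proteases was 0.69, below the 0.73 of the sugar and lipid hydrolases.

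The class II genes, whose products carry the peptides that these proteases make, showed 4 higher of 10, and the other 6 did not pass the test. H2-Ab1 averaged 10736 FPKM in FO B (Aged) and 16921 FPKM in ABCs (0.65, adjusted p = 0.00398), H2-Eb1 2854 and 3896 FPKM (0.45, adjusted p = 0.00872) and Ciita, the class II transactivator, 123 and 167 FPKM (0.44, adjusted p = 0.00623). H2-Aa differed by 0.34 (adjusted p = 0.0331), and its call was lost under 8 of the alternatives. H2-Ab1 was not called under quantile normalization (adjusted p = 0.115) or with no filter (adjusted p = 0.121), nor H2-Eb1 with no filter (adjusted p = 0.0568). The other 6 were named after their values were seen and went in both directions, none past the limma test. The invariant chain Cd74 averaged 23879 and 26042 FPKM (0.12, adjusted p = 0.451). H2-Oa (0.18, adjusted p = 0.0961), H2-DMb2 (0.27, adjusted p = 0.141) and H2-DMa (0.06, adjusted p = 0.511) were also higher on average in ABCs. H2-Ob averaged 536 and 453 FPKM (-0.25, adjusted p = 0.0759) and H2-DMb1 320 and 282 FPKM (-0.19, adjusted p = 0.102).

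Between FO B (Aged) and FO B (Young), 0 of 98 tested pathway genes were called higher and 1 lower by limma, with a median of -0.04, and 5 higher and 8 lower had an unadjusted p under 0.05. That gene was Glb1, the lysosomal beta-galactosidase, at 31.0, 28.4 and 29.0 FPKM in FO B (Young) and 22.1, 21.7 and 21.3 FPKM in FO B (Aged) (-0.42, adjusted p = 0.0404). The groups did not overlap, but the call was lost under 12 of 16 alternatives, with an adjusted p between 0.0362 and 0.195. A log2 difference above 2.3 with an FDR under 0.01, the cutoffs that the study drew for ABCs against FO B (Aged), was reached by 2 of the pathway genes, Grn and Laptm4b. The 10 genes all lay below that size, the largest being 1.44 for Ctsb. The cutoff was applied here to log2(FPKM + 1), where the added 1 makes differences smaller for genes at low levels. Cpq, for example, had a mean in ABCs 15.0 times that in FO B (Aged) but a log2 difference of 1.97.

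Cathepsins are abundant in macrophages, so markers of other cells were read beside these results. The 16 macrophage and monocyte markers summed to 27.1 to 32.1 FPKM in FO B (Aged), 38.8 to 61.0 FPKM in FO B (Young) and 273 to 325 FPKM in ABCs. Most of the sum in ABCs came from Adgre1, which encodes F4/80 (2.90 FPKM in FO B (Aged) and 198 FPKM in ABCs), and Ly6c2 (11.5 and 74.2 FPKM). Vcam1 was at 0.497 and 2.69 FPKM, Spic at 6.24 and 9.14 FPKM, C1qb at 1.01 and 2.01 FPKM, C1qc at 0.720 and 2.25 FPKM, and Lyz2 at 3.99 and 5.10 FPKM in the same order. The other 9 of the 16 averaged under 1 FPKM in both groups. Of these, Csf1r (0.384 and 0.520 FPKM), Cd14 (0.127 and 0.190 FPKM), Mertk (0.00 and 0.0902 FPKM), Timd4 (0.0191 and 0.144 FPKM) and Ccr2 (0.0364 and 0.775 FPKM) had a higher mean in ABCs. Cd5l (0.679 and 0.322 FPKM), C1qa (0.466 and 0.373 FPKM), Marco (0.236 and 0.0436 FPKM) and Fcgr1 (0.0473 and 0.0155 FPKM) had a lower mean in ABCs. None of the 16 was at 0 in all 3 ABC libraries. So some markers of the list were higher in ABCs and others were low in both groups, some of them lower in ABCs. Dendritic cell markers summed to 8.94 to 13.5 FPKM in ABCs and 2.46 to 5.08 FPKM in FO B (Aged). Batf3 averaged 0.00 FPKM in FO B (Aged) and 4.96 FPKM in ABCs, Zbtb46 0.853 and 3.17 FPKM and Siglech 0.120 and 1.13 FPKM. Flt3 was lower in ABCs (2.18 and 0.765 FPKM), and Xcr1, Clec9a, Cd209a and Clec10a averaged under 1 FPKM in both. NK cell markers summed to 0.202 to 2.71 FPKM in ABCs and 0.00 to 0.281 FPKM in FO B (Aged). Neutrophil markers summed to 0.322 to 0.751 FPKM in ABCs and 1.08 to 21.8 FPKM in FO B (Aged), and plasma cell markers to 976 to 1275 FPKM and 443 to 471 FPKM. Most of the plasma cell sum was Mzb1, at 316 FPKM in FO B (Aged) and 944 FPKM in ABCs. In the same order Xbp1 averaged 114 and 134 FPKM, Jchain 5.93 and 38.2 FPKM and Sdc1 3.11 and 15.8 FPKM. Prdm1 averaged 0.378 and 4.46 FPKM, and Irf4 was lower in ABCs (17.3 and 15.6 FPKM). T cell markers summed to 5.07 to 38.2 FPKM in ABCs and 0.440 to 1.05 FPKM in FO B (Aged). Nearly all of this in ABCs was Cd3g, at 9.63, 37.0 and 4.93 FPKM. Cd8b1 averaged 0.401 FPKM in FO B (Aged) and 0.520 FPKM in ABCs, and Cd3d 0.288 and 0.379 FPKM. In ABCs Cd3e (0.0332 FPKM), Cd4 (0.0140 FPKM), Cd8a (0.0140 FPKM) and Cd247 (0.0709 FPKM) were near 0 on average. The part of such cells in the levels of the 10 genes was not tested.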

How the data were processed

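Bulk RNA-seq was made from 9 sorted samples, with groups and ages taken from the labels. For each library the authors deposited 1 FPKM value per gene symbol. Per the methods, cDNA was made with SMART-Seq HT, which keeps no strand, and libraries with Nextera, and single-end reads were aligned to the mouse genome mm10. The submitters' processing notes name TopHat2 2.1.1, Bowtie2 2.2.8, SAMtools 0.1.18 and Cuffdiff 2.2.1, whereas the methods of the study give Cufflinks and other versions of the first 3. The gene annotation is not given in the sources used here.

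Values were taken to log2(FPKM + 1), and linear models (lmFit, eBayes with a trend) were fitted in limma 3.58.1 (R 4.3.3) to the libraries of the 2 groups compared. Genes below a mean of 1 FPKM were left out, and a gene was called at a Benjamini-Hochberg FDR under 0.05 over all genes tested. With 3 libraries per group, p-values set a group difference against the spread between libraries, moderated by that of other genes. The fit was tested on simulated data. The 10 genes, the 8 pathway lists and the 8 marker lists were chosen with earlier results of these data known. Class II genes that were not called were named after their values were seen. Other named pathway genes were up to 3 called genes with the largest change in each direction per list, and all called class II genes. A gene so named and a surface marker of the sort are not reported here. For each of the 10 genes, the gene of highest Pearson r over the 9 libraries was also named.

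Depth was approximated from the FPKM of single reads in genes with 1 annotated transcript. Reads of Ctsl were approximated for a transcript of 1971 bases. Alternatives were a pseudocount of 0.1, no filter, a higher filter (mean of 5 FPKM or more), quantile normalization, TPM scaling, upper quartile scaling, eBayes without a trend, all 9 libraries, the replicate number as a block, and leaving out each library. Upper quartile scaling was run in 2 forms. The first took the quartile of values above 0 in each library. After its result was seen, the quartile over genes above 0 in at least 1 library was taken in its place, and the first form was kept as an added alternative. Python 3.11.15, numpy 2.4.6, pandas 2.3.3 and matplotlib 3.10.9 were used.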

Additional observations from a re-analysis of the deposited data

How the results depend on the processing

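Ifi30 was the 1 gene of the 10 called between FO B (Aged) and FO B (Young) under all 16 alternatives. The 65 pathway genes higher in ABCs, which include Cpq and Cst7, were 54 to 68 under the alternatives. They were 54 to 66 when 1 library was left out. Cpq and Cst7 entered the fit only through their level in ABCs, and 63 of 99 genes rose without them. The 3 lower ones were 3 to 4 when 1 library was left out and 5 under quantile normalization. A fit with a replicate block gave 64 higher, 3 lower and 1 gene called with age. The numbers were not taken to pair the libraries, since deviations of same-numbered libraries correlated at 0.08, -0.02 and 0.11 (ABCs and FO B (Aged)) and at -0.05, 0.14 and -0.09 (FO B (Aged) and FO B (Young)), and not every library correlated best with its own number. The log2 difference with age ran from -0.00087 (without FO B (Young) replicate 3) to 0.0433 for Ctss and from -0.0031 (without FO B (Aged) replicate 2) to 0.137 for Ctsd when 1 library was left out. Scaling to the upper quartile of values above 0, the form of this scaling that was run first and replaced after its result was seen, moved the median of all genes by 0.15 in ABCs against FO B (Aged) and by -0.12 with age. Under it, the differences with age turned to -0.013 for Ctsa, -0.061 for Ctsd and -0.10 for Ctss, that of Ctss in ABCs turned from -0.05 to 0.14, and calls were 2447 higher and 603 lower in ABCs (2020 and 1719 as reported) and 24 higher and 27 lower with age (35 and 12). The cause was not tested. The form that replaced it gave 1950 and 1803, and 33 and 12. The other 9 genes kept a higher mean in ABCs than in FO B (Aged) under every alternative. Depth was approximate, and Ctsl rested on few reads.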
